A study of Mus musculus with 12 samples.

Results

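Complement is a cascade of plasma proteins that marks microbes and dying cells for removal and opens membranes. Its classical arm starts when C1q, a hexamer built of the C1QA, C1QB and C1QC chains, binds antibody or altered cell surfaces. C4 and C2 then form the convertase that cleaves C3, the component on which all arms converge, while factor B (Cfb) and properdin (Cfp) form and stabilise the convertase of the alternative arm. Most circulating complement is made by the liver, whereas C1q and properdin are known products of myeloid cells. The 8 components examined here, C1qa, C1qb, C1qc, C2, C3, C4b, Cfb and Cfp, were chosen by gene symbol from the deposited count tables, out of 18719 genes listed in either table. Of these 8 genes, 7 were listed in unstimulated cells, with Cfb missing, and all 8 after lipopolysaccharide (LPS).

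RNA-seq was performed on J774A.1, a mouse macrophage line, in 12 libraries and 4 groups of 3. WT lines had received a Cas9 vector with no guide RNA and ACAT1 KO lines the same vector with a guide to an exon of Acat1, the mitochondrial acetyl-CoA acetyltransferase, and lines of both genotypes were grown out as single-cell clones, with 3 different lines per genotype. Each genotype was either left untreated or treated with 100 ng/ml LPS, a TLR4 agonist, for 2 hours, so that WT differs from KO by clone as well as by guide. The design asks what loss of ACAT1, the LPS stimulus and their combination do to transcript levels.

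Total counts ranged from 56948593 to 167280149 per library, and values below are CPM, counts scaled to effective library size, on one TMM-normalized scale for which both tables were joined over the 12 libraries. Acat1 was lower in every KO library, by a log2 fold change of -1.87 (SE 0.124) without stimulation and -2.08 (SE 0.130) after LPS (adjusted p = 0.00876 and 7.87e-04, edgeR quasi-likelihood test with Benjamini-Hochberg adjustment over all genes). All 9 macrophage markers were listed, with a summed level of 9339 to 11840 CPM, of which Lyz2 held 5020 to 7413 CPM. Fcgr1 was lower in KO cells in both states (log2 fold change -0.69 and -1.07) and Adgre1 in unstimulated cells (-0.78). Cd14 (0.40) and Itgam (0.48) were higher in KO cells after LPS. No other marker passed an adjusted p of 0.05 between genotypes (edgeR). At most 3 of 14 markers of other cells were listed, with a summed level of 2.38 to 5.25 CPM. The hepatocyte markers Alb, Apoa1 and Ttr were not listed in either state. WT replicates 1 and 2 and KO replicate 2 of the unstimulated cells had raised opposite-strand counts. These are counts of genes not annotated as protein coding, with at least 50% of their exon bases opposite exons of protein-coding genes. Such genes took 0.0450%, 0.0624% and 0.0685% of all counts there, and no more than 0.0158% in any of the remaining libraries. Calls of members that involve unstimulated cells are also given without these 3 libraries, which leaves WT replicate 3 as the only unstimulated WT library, assumed to vary like the other groups.

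The 8 genes lie in 4 places of GRCm38, all on the minus strand. C1qb (chr4:136880129-136886187), C1qc (chr4:136889804-136893065) and C1qa (chr4:136895917-136898803) follow each other with gaps of 3616 and 2851 bases. C4b (chr17:34728380-34743882), Cfb (chr17:34856374-34862518) and C2 (chr17:34862604-34898265) sit in the class III region of the major histocompatibility complex, where Cfb and C2 are 85 bases apart. C3 (chr17:57203970-57228136) lies farther along the same chromosome, and Cfp is X-linked (chrX:20925454-20931555). Some reads cannot be assigned to a single gene of this group. Windows of 100 bases were taken from the longest transcript of each gene. Of those of C4b, 16.5% also occur in C4a, the neighbouring copy of C4. Of those of C2 and Cfb, 53.2% and 81.0% occur in Gm20547, an annotated readthrough of both genes that the tables do not list. The other 5 genes shared no such window with another gene.

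Promoter windows from RefSeq, 250 bases before to 50 after the start site on GRCm38.p6, were used for 4 of the 8 genes. The windows of C3 (chr17:57228087-57228386), which rose after LPS, and of the adjacent genes C1qb (chr4:136886151-136886450) and C1qc (chr4:136892865-136893164), whose levels differed little between conditions, are shown 5′ to 3′ on the minus strand so that their letters can be compared. Capitals mark matches on either strand to 4 patterns, the NF-kB letters (GGG, any 5 bases, CC), the PU.1 letters GAGGAA, the interferon-response letters (ISRE; GAAA, any 2 bases, GAAA) and the STAT letters TTCNNNGAA (GAS).
C3: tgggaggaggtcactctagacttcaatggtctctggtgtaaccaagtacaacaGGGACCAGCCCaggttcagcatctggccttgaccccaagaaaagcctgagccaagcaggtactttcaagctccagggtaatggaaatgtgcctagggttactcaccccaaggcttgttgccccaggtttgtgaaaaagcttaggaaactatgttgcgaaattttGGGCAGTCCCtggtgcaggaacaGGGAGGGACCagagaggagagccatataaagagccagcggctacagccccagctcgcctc
C1qb: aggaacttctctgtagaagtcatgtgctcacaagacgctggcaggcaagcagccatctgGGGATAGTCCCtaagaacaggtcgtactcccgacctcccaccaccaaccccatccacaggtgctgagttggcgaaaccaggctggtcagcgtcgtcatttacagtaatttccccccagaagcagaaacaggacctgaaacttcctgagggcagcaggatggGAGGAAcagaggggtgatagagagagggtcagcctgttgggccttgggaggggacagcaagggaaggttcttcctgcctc
C1qc: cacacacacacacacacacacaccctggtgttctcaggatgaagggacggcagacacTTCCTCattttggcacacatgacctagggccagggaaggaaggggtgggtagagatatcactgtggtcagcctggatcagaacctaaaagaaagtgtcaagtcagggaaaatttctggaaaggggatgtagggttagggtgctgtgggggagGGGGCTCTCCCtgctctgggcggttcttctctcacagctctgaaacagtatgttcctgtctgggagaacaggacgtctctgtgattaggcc
C3 held the NF-kB letters in 3 separate stretches, at positions -197, -33 and -10 from the start site, with overlapping matches on both strands in the first and second of them. C1qb, C1qc and Cfp held them in 1 stretch each. The same letters occur at least once in 50.8% of 32817 promoters, so their presence does not set these genes apart. How many promoters hold them in 3 stretches was not counted. The PU.1 letters, which 28.3% of promoters hold, were found in C1qb, C1qc and Cfp and not in C3, and neither the ISRE letters (3.43% of promoters) nor the GAS letters (8.29%) were found in any of the 4 windows. These are matches of letters, and no binding was measured.

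The complement genes fell into an abundant and a scarce set. How reads shared with Gm20547 were counted is not given, so the levels of C2 and Cfb per kilobase may be understated. Per kilobase of exon, unstimulated WT cells held 310 CPM of C1qa, 282 of Cfp, 277 of C1qb, 206 of C1qc and 109 of C3, and 0.215 CPM of C2 and 0.144 of C4b. C1qa was thereby within the top 0.708% of 17521 genes, and C3 within the top 2.15%. With the longest transcript in place of all exons they were within the top 0.959% and 2.90%. Per kilobase of all exons, C1qa, Cfp and C1qb overlapped between lines and could not be ordered, and C1qc at 167 to 225 CPM per kb lay below all of them. C3 at 105 to 113 CPM per kb lay apart from every other member. The place of C1qc depends on its length, since it had 330 CPM per kb when the longest transcript was used in place of all exons. C2 and C4b overlapped narrowly, with 0.163 to 0.280 and 0.128 to 0.163 CPM per kb, but by longest transcript C2 at 0.239 to 0.410 lay above C4b at 0.135 to 0.173.

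After LPS the order changed through C3. In WT cells treated with LPS, C1qa, C1qb and C3 stood at 312, 311 and 302 CPM per kb, with overlapping ranges, followed by Cfp at 273, which overlapped all of them, and C1qc at 212. In KO cells treated with LPS, C3 at 371 CPM per kb had the highest mean of the group, followed by C1qb at 353, whose range overlapped that of C3. C3 was then within the top 1.02% of 17849 genes in WT cells and the top 0.734% in KO cells. By longest transcript C3 was within the top 1.31% and 1.03%. C1qc then had 341 CPM per kb in WT cells, the highest mean of the group, and 340 in KO cells. Cfb stood at 0.207 and 0.367 CPM per kb in WT and KO cells, above C2 at 0.140 and 0.0975 and C4b at 0.0536 and 0.0408. By longest transcript Cfb and C2 overlapped in WT cells, at 0.200 to 0.225 and 0.195 to 0.211 CPM per kb, and Cfb lay above C2 in KO cells. The order of Cfb and C2 may also depend on how reads shared with Gm20547 were counted.

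**Figure D1:**
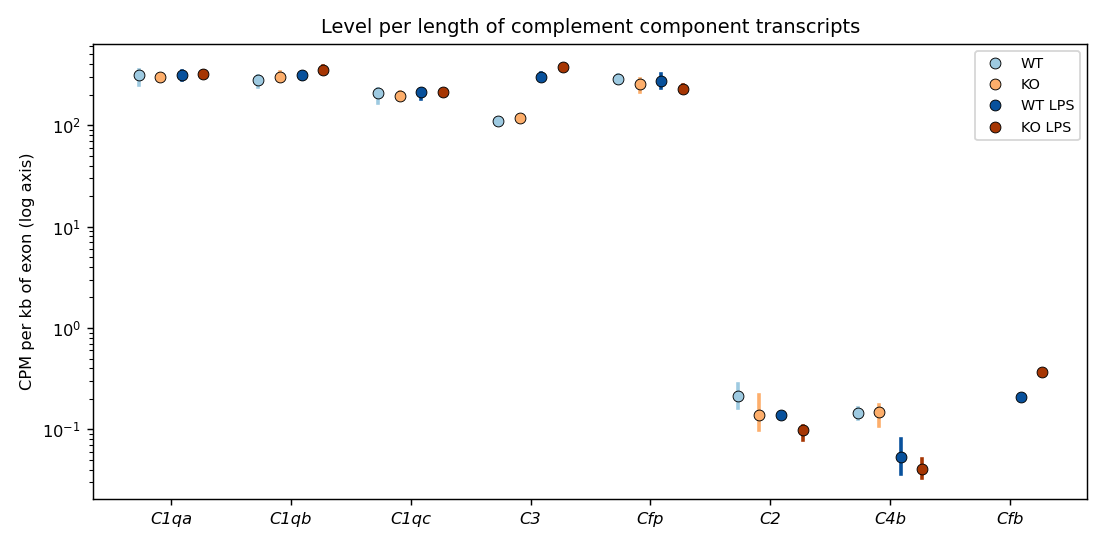
Level of each complement gene per kilobase of exon (CPM per kb, log axis) in the 4 groups; points are means of 3 lines and vertical lines run from the lowest to the highest line. C1qa, C1qb, C1qc, C3 and Cfp lie above 100 CPM per kb and C2, C4b and Cfb below 1, and the C3 points after LPS (302 and 371) lie above those without it (109 and 116).

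In the comparison of LPS with unstimulated cells, which asks how the stimulus acts in each genotype, C3 rose and C4b fell in both genotypes, and no other member passed the test. Of the 7 genes tested, 2 were called in each genotype, 1 in each direction, against 57.4% of 16535 genes in WT cells (29.3% higher, 28% lower) and 60.7% in KO cells (29.5% higher, 31.2% lower). Whether the members were called less often than the genes at large was not tested. Their median log2 fold change was 0.01 in WT and 0.10 in KO cells, beside -0.02 and -0.03 for all genes.

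C3, whose fragment C3b coats targets and whose fragment C3a recruits leukocytes, was at 579, 569 and 539 CPM in WT replicates 1 to 3 without stimulation and at 1486, 1473 and 1700 CPM after LPS. In KO cells it was at 565, 591 and 641 CPM without stimulation and at 1797, 1893 and 2033 CPM after LPS. Every LPS library lay above every unstimulated one. The libraries are of bulk RNA, so more cells expressing C3 and more C3 RNA per cell cannot be told apart. C3 rose 2.76-fold in WT cells (95% interval 2.45 to 3.11), a log2 fold change of 1.47 (SE 0.0787, adjusted p = 2.35e-08, edgeR quasi-likelihood test with Benjamini-Hochberg adjustment). In KO cells it rose 3.19-fold (2.83 to 3.59), a log2 fold change of 1.67 (SE 0.0791, adjusted p = 7.19e-09, same test). Without the 3 libraries with raised opposite-strand counts the log2 values were 1.4996 and 1.67, and C3 passed the test in both genotypes. C3 took 0.0606% to 0.0715% of all counts without stimulation, 0.131% to 0.154% in WT cells after LPS and 0.160% to 0.188% in KO cells after LPS.

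C4b, the mouse gene for complement C4, the partner of C2 in the classical convertase, went the other way from a low level. It was at 0.806, 0.931 and 0.728 CPM in WT replicates 1 to 3 without stimulation and at 0.457, 0.253 and 0.205 CPM after LPS, and in KO cells at 0.912, 0.620 and 0.991 CPM and then 0.291, 0.188 and 0.219 CPM. The groups did not overlap in either genotype, which held for 61% of all genes in WT and 67.8% in KO cells, although WT replicate 1 after LPS was well above the other LPS libraries. C4b fell 2.72-fold in WT cells, a log2 fold change of -1.44 (SE 0.305, adjusted p = 0.00152, edgeR quasi-likelihood test), and 3.63-fold in KO cells, a log2 fold change of -1.86 (SE 0.309, adjusted p = 2.36e-04). Without the 3 libraries with raised opposite-strand counts it was -1.33 and -2.03 and passed the test in both genotypes. These levels rest on 21 to 126 counts per library. C4a, with which C4b shares reads, did not pass the test, with a log2 fold change of 0.32 (SE 0.195, adjusted p = 0.182, edgeR) in WT and 0.24 (SE 0.196, adjusted p = 0.302) in KO cells.

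The C1q chains did not pass the test of the LPS response. C1qa, the A chain, was at 346, 262 and 362 CPM in unstimulated WT replicates 1 to 3 and 330, 289 and 354 CPM after LPS, and at 330, 295 and 312 CPM and then 333, 354 and 316 CPM in KO cells. For C1qc, the C chain, the values were 435, 323 and 434 CPM and then 440, 352 and 437 CPM in WT cells, and 371, 346 and 409 CPM and then 388, 410 and 428 CPM in KO cells. WT replicate 2 was the lowest WT line for all 3 chains in both states. The 95% intervals of the LPS fold change were 0.845 to 1.19 for C1qa and 0.857 to 1.24 for C1qc in WT cells, and 0.902 to 1.27 and 0.905 to 1.31 in KO cells, so that changes beyond these bounds were not seen while smaller ones could not be resolved. The direction of these small differences depended on scaling: upper-quartile normalization, which moved the median of all genes by -0.21 in WT and -0.15 in KO cells on the log2 scale, turned the C1qa and C1qc values negative in both genotypes.

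C1qb, the B chain, did not pass the test of the LPS response in the unpaired edgeR fit and passed it in the paired one. It was at 312, 259 and 334 CPM in unstimulated WT replicates 1 to 3 and 337, 314 and 365 CPM after LPS, and at 309, 296 and 363 CPM and then 355, 382 and 415 CPM in KO cells, so each replicate number was higher after LPS than without it. The groups overlapped in both genotypes. The log2 fold change was 0.17 in WT (SE 0.108, adjusted p = 0.210, edgeR quasi-likelihood test) and 0.25 in KO cells (SE 0.108, adjusted p = 0.0644). With the line as a block, which rests on a pairing of libraries by replicate number, it was 0.17 (adjusted p = 0.0299) and 0.25 (adjusted p = 0.00471). In KO cells it also passed with DESeq2 (adjusted p = 0.0488) and, by edgeR, without WT replicate 2 (adjusted p = 0.0371) or KO replicate 3 (adjusted p = 0.0226) of the unstimulated cells. Without the 3 libraries with raised opposite-strand counts, which leaves 1 unstimulated WT library, the WT value was -0.0064 (adjusted p = 0.972) and the KO value 0.20 (adjusted p = 0.109, edgeR).

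Properdin, the one known positive regulator of complement, and C2, the protease of the classical convertase, did not pass the test. Cfp was at 546, 457 and 466 CPM in unstimulated WT replicates 1 to 3 and 551, 471 and 402 CPM after LPS, and at 496, 370 and 450 CPM and then 430, 377 and 382 CPM in KO cells. Its groups overlapped, and the LPS fold change had a 95% interval of 0.796 to 1.18 in WT and 0.743 to 1.10 in KO cells. C2 was at 0.778, 1.08 and 0.631 CPM in unstimulated WT replicates 1 to 3 and 0.551, 0.557 and 0.516 CPM after LPS, so the WT groups did not overlap, as was the case for 61% of all genes tested. In KO cells it was at 0.391, 0.848 and 0.380 CPM and then 0.303, 0.411 and 0.419 CPM, and the groups overlapped.

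C2 had a log2 fold change of -0.61 in WT (SE 0.313, adjusted p = 0.116, edgeR quasi-likelihood test) and -0.50 in KO cells (SE 0.318, adjusted p = 0.196). The value moved with the 3 unstimulated libraries with raised opposite-strand counts. These held 0.778 to 1.08 CPM of C2 and the other 3 unstimulated libraries 0.380 to 0.631 CPM. Without them, with 1 unstimulated WT library and 2 KO libraries left, the log2 fold change was -0.25 in WT and -0.0092 in KO cells, and with a term for them it was -0.041 and -0.13 (adjusted p from 0.394 to 0.997 over these 4 values, edgeR). Zbtb12, a zinc finger gene on the other strand that shares 161 exon bases with C2, was at 15.8 ± 1.74 CPM (SD, n = 3) in WT cells without stimulation and 4.94 ± 0.322 CPM (SD, n = 3) after LPS. The part of either in the C2 values was not tested.

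**Figure D2:**
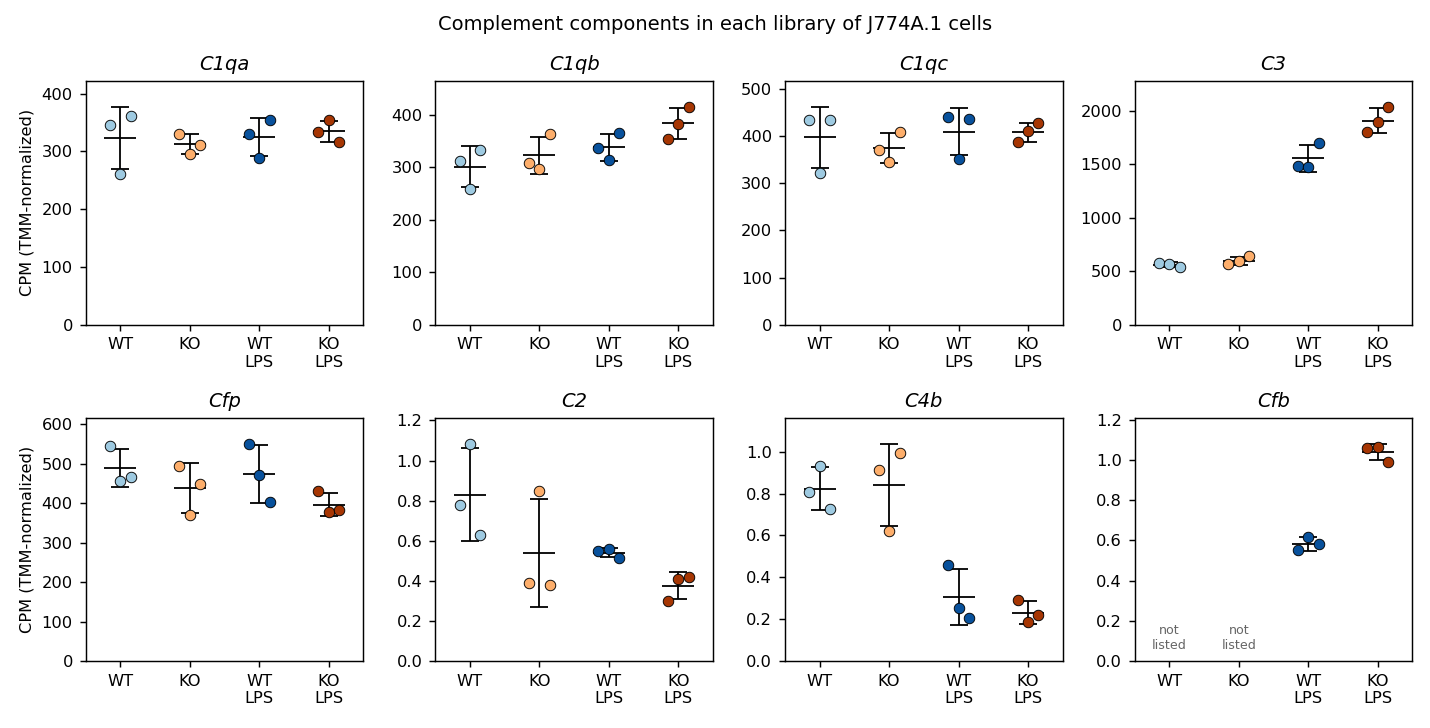
CPM of each complement gene (TMM-normalized, linear axes from 0) in the 12 libraries by group; points are lines in the order of replicates 1 to 3, horizontal bars are means and error bars are 1 SD (n = 3). C3 after LPS (1473 to 2033 CPM) lies above every unstimulated library, C4b after LPS (0.188 to 0.457 CPM) below every one, and Cfb, not listed without stimulation, is higher in all KO lines than in all WT lines after LPS.

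KO and WT cells were next compared within each state. In unstimulated cells no complement gene passed the test. Of 7 genes tested, edgeR called 0 at an adjusted p under 0.05 and 0 at an unadjusted p under 0.05, and DESeq2 and limma-voom called 0 as well, against 1.91% (adjusted) and 19.7% (unadjusted) of 16440 genes by edgeR. The WT and KO ranges overlapped for all 7, whereas they did not overlap for 25.5% of all genes. The spread between unstimulated libraries was wide, with a common biological coefficient of variation of 0.285 as against 0.108 after LPS. Deviations from group means, over 11961 genes with a mean of at least 1 CPM, were correlated between unstimulated WT and KO libraries. The correlation was 0.583 to 0.745 where both or neither library had raised opposite-strand counts, and -0.862 to -0.412 where only 1 had. The part of lines and of this split in the spread was not tested. For the abundant genes the 95% intervals of the KO to WT ratio lay within 0.736 and 1.31, namely 0.951 to 1.21 for C3, 0.789 to 1.20 for C1qa, 0.882 to 1.31 for C1qb, 0.766 to 1.18 for C1qc and 0.736 to 1.10 for Cfp. For the scarce genes they were wider, 0.701 to 1.52 for C4b and 0.347 to 1.24 for C2. Without the 3 libraries with raised opposite-strand counts, 1 WT library was compared with 2 KO libraries, edgeR called 0 of the 7 genes, and log2 fold changes ran from -0.71 for C2 to 0.38 for C4b (adjusted p from 0.470 to 0.994).

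After LPS, factor B and C3 were higher in KO cells. They were 2 of the 8 genes tested, against 5.93% of 16483 genes called higher and 15.1% called in either direction. The groups did not overlap for 3 members, C3 and Cfb above and C2 below, where 37.8% of all genes did not (15.8% higher, 21.9% lower). The median log2 fold change of the 8 genes was 0.04, beside -0.0041 for all genes.

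Cfb, the protease of the alternative C3 convertase, was at 0.551, 0.618 and 0.582 CPM in WT replicates 1 to 3 and at 1.06, 1.06 and 0.990 CPM in KO replicates 1 to 3. All KO lines lay above all WT lines, with 47, 61 and 88 counts in WT and 91, 119 and 104 counts in KO libraries. The ratio was 1.80 (95% interval 1.43 to 2.27), a log2 fold change of 0.85 (SE 0.145, adjusted p = 0.00997, edgeR quasi-likelihood test with Benjamini-Hochberg adjustment). It was called under each of 13 alternatives, with values of 0.81 to 0.89. Cfb was not listed in the unstimulated table, which holds genes with at least 4 counts in at least 5 of its 6 libraries, so neither its LPS response nor the interaction could be tested. Most windows of the longest Cfb transcript also occur in Gm20547, and how such reads were counted is not given. The value may thus cover both transcripts or only part of Cfb.

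C3 after LPS averaged 1553 ± 127 CPM in WT lines and 1908 ± 118 CPM in KO lines (SD, n = 3 each). The lowest KO line, at 1797 CPM, was above the highest WT line, at 1700 CPM. The ratio was 1.25 (95% interval 1.09 to 1.43), a log2 fold change of 0.32 (SE 0.0842, adjusted p = 0.0405, edgeR quasi-likelihood test). This call was lost when WT replicate 1 or 2 or any of the 3 KO replicates was left out, with values of 0.27 to 0.36 and adjusted p of 0.0681 to 0.121, and it held under the other 9 of 14 alternatives. In unstimulated cells the C3 ratio was 1.07, and the difference between the genotypes in their LPS response was 0.21 on the log2 scale (SE 0.109, adjusted p = 0.646, edgeR), so a larger response of C3 in KO cells was not established.

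The other 6 genes did not pass the adjusted threshold after LPS. C2 was at 0.541 ± 0.0226 CPM in WT lines and 0.378 ± 0.0651 CPM in KO lines (SD, n = 3 each), a log2 fold change of -0.48 (SE 0.191, adjusted p = 0.127, edgeR), and all KO lines lay below all WT lines. C2 thus had values opposite in direction to those of Cfb, the gene that begins 85 bases from it and with which it shares Gm20547. C1qb was at 339 ± 25.6 CPM in WT lines and 384 ± 30.1 CPM in KO lines (SD, n = 3 each), a log2 fold change of 0.20 (SE 0.0823, adjusted p = 0.139, edgeR), with overlapping groups. C1qa, C1qc, Cfp and C4b had log2 fold changes of 0.06, 0.02, -0.24 and -0.34, and KO to WT ratios with 95% intervals of 0.916 to 1.19, 0.870 to 1.18, 0.711 to 1.01 and 0.457 to 1.37.

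The interaction of genotype and LPS asks whether the LPS response differed between WT and KO cells. Of the 7 genes tested, edgeR called 0 at an adjusted and 0 at an unadjusted p under 0.05, and DESeq2 and limma-voom called 0, as did edgeR without the 3 libraries with raised opposite-strand counts, while edgeR called 0.187% of 16535 genes (8.92% unadjusted). The C3 difference above was the one with the smallest p. C4b, with falls of 1.44 and 1.86 on the log2 scale, differed by -0.42 without passing the test (95% interval -1.35 to 0.52, adjusted p = 0.892, edgeR), an interval that leaves room for a large difference in either direction.

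**Figure D3:**
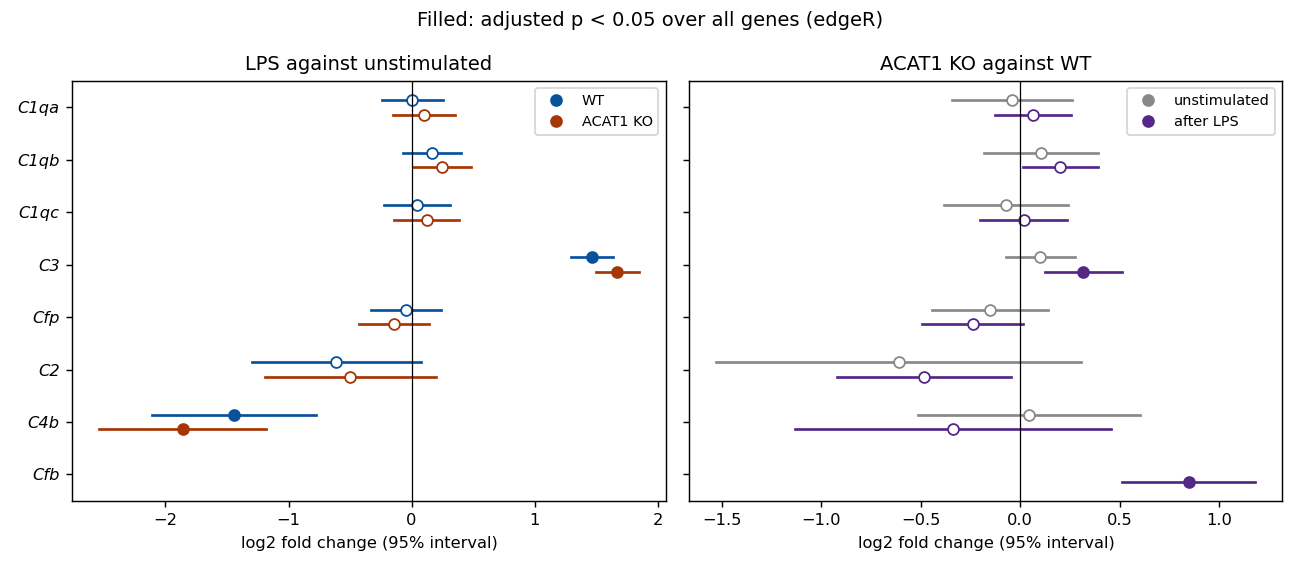
Log2 fold changes of the complement genes with 95% intervals from edgeR, for LPS against unstimulated cells in WT and KO lines (left) and for KO against WT cells without stimulation and after LPS (right); filled points passed an adjusted p of 0.05 over all genes. C3 (1.47 and 1.67) and C4b (-1.44 and -1.86) are filled on the left, and C3 (0.32) and Cfb (0.85) after LPS on the right; Cfb has no value where it was not listed.

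Of 49 other complement genes written as a list, 28 were listed in the tables. Those not listed in either state were the collectins and ficolin Mbl1, Mbl2, Colec10, Colec11 and Fcnb, the protease Cfd, the terminal components Hc, C6, C7, C8a, C8b and C9, the regulators Cfi, C4bp, Vtn, Cpn2, Cd55b, Cd59a and Cd59b, and the receptors Cr2 and Vsig4. With C1q, C3 and properdin abundant, most of the terminal pathway that C3 feeds was thus not listed. The tables cannot show how far below their limit such genes were.

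Of the 26 other genes tested, 12 passed the test of the LPS response in WT cells, 4 higher and 8 lower, and 10 in KO cells, 3 higher and 7 lower. The percentages for all genes are those given for the members, and the median log2 fold changes of the 26 genes were -0.15 and -0.14. The receptors C3ar1 and C5ar1 had the largest increases, whereas C5ar2, the other receptor of C5a, fell in WT cells (-0.92, adjusted p = 0.00402, edgeR) and had -0.48 (adjusted p = 0.0838) in KO cells. C3ar1, the receptor of C3a, rose from 212 ± 9.10 to 901 ± 66.6 CPM (SD, n = 3) in WT cells and from 212 ± 9.92 to 772 ± 42.8 CPM in KO cells, log2 fold changes of 2.09 and 1.87 (adjusted p = 1.03e-09 and 1.75e-09, edgeR). C5ar1, the receptor of C5a, rose from 136 ± 14.1 to 393 ± 24.3 CPM (SD, n = 3) and from 128 ± 21.0 to 456 ± 29.6 CPM, log2 fold changes of 1.54 and 1.84 (adjusted p = 3.50e-07 and 7.35e-08, edgeR). C3 and the receptor of its fragment thus rose in the same cultures.

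Of the genes that fell, Cd46, a membrane cofactor for the inactivation of C3b, changed by -1.24 on the log2 scale in WT and -1.65 in KO cells (adjusted p = 1.46e-04 and 1.75e-05, edgeR), from 1.20 ± 0.166 CPM and 0.852 ± 0.0876 CPM (SD, n = 3) without stimulation. Masp2, the lectin pathway protease that cleaves C4 and C2, changed by -0.96 and -0.56, and Masp1, the protease that activates it, by -0.79 and -1.13. Each of these passed the test in both genotypes. For Masp2 in KO cells the groups overlapped, at 1.91, 2.80 and 1.56 CPM without stimulation and 1.47, 1.22 and 1.57 CPM after LPS. The highest of these, KO replicate 2 without stimulation, had raised opposite-strand counts, and its part in the fall of Masp2 was not tested. C1s1, a protease of the C1 complex that cleaves C4 and C2, passed it in WT cells with 0.84 (SE 0.204, adjusted p = 0.00390, edgeR) and had 0.32 (SE 0.205, adjusted p = 0.191) in KO cells, and the difference between them was -0.51 (SE 0.289, adjusted p = 0.678).

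**Figure D4:**
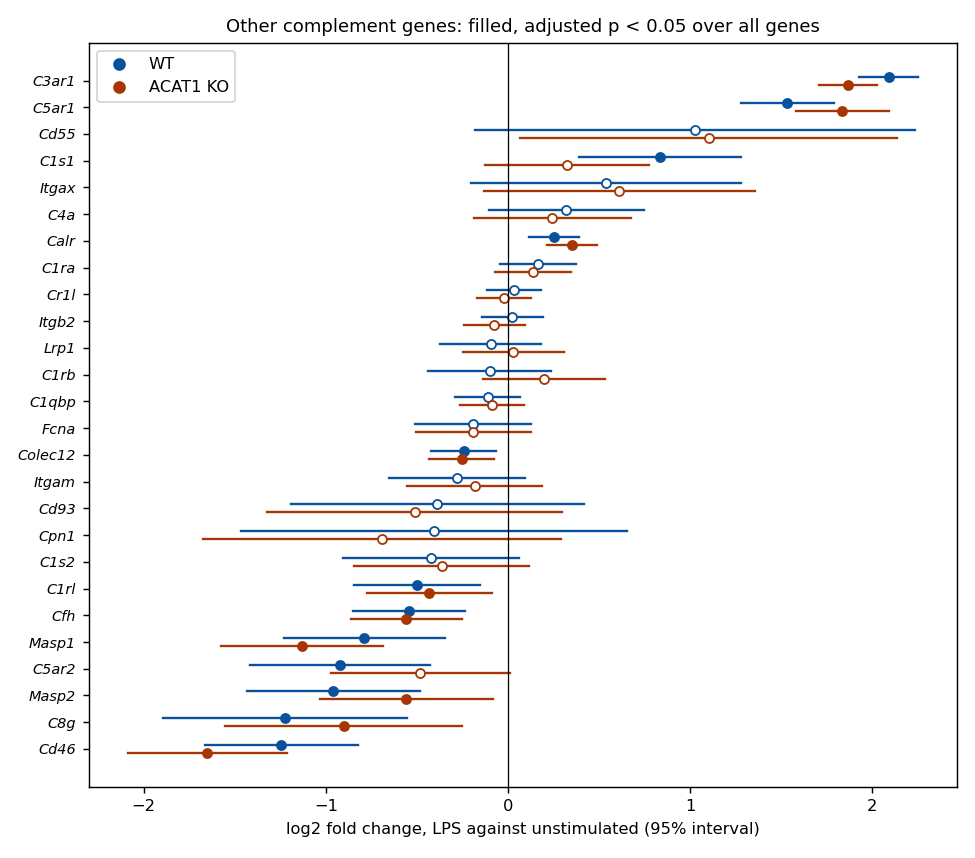
Log2 fold change after LPS with 95% interval from edgeR for 26 other complement genes in WT and KO cells, ordered by the WT value; filled points passed an adjusted p of 0.05 over all genes. C3ar1 (2.09 and 1.87) and C5ar1 (1.54 and 1.84) are at the top and Cd46 (-1.24 and -1.65) is at the bottom.

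Between genotypes, 0 of the 26 other genes passed the adjusted threshold in unstimulated cells by edgeR, and an unadjusted p under 0.05 was reached by 2 genes that were higher and 2 that were lower. After LPS 5 of 27 passed, 2 higher and 3 lower in KO cells, beside 15.1% of all genes. Clu, which encodes clusterin, an inhibitor of the membrane attack complex, was at 2.11, 1.64 and 1.02 CPM in WT and 0.338, 0.250 and 0.457 CPM in KO replicates 1 to 3, a log2 fold change of -2.15 (SE 0.323, adjusted p = 0.00673, edgeR), and was listed only in the LPS table. Cd46 (-0.87, adjusted p = 0.0308, edgeR) and C1s1 (-0.82, adjusted p = 0.0246) were also lower. Both were scarce, Cd46 at 0.504 and 0.269 CPM and C1s1 at 1.11 and 0.611 CPM in WT and KO cells. These levels rest on 18 to 82 counts per library for Cd46 and 47 to 137 for C1s1. Itgam, the alpha chain of complement receptor CR3, was higher by 0.48 (adjusted p = 0.0147, edgeR), and so was Fcna, the lectin ficolin A, by 0.58 (adjusted p = 0.0168). The interaction called 0 of 26 by edgeR, with 1 at an unadjusted p under 0.05.

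Genes with a profile most like that of a member were found by the root-mean-square difference of centred log2 CPM over the 12 libraries, among 16528 genes, for the 3 members whose group means spanned at least 1 on that scale. For C3 (span 1.76) they were Crtc2, a coactivator of CREB (0.0913), Rhbdf2, an inactive rhomboid protein that TNF release depends on (0.108), and Rnf2, a Polycomb ubiquitin ligase (0.111). Crtc2 went from 49.9 ± 2.74 to 136 ± 9.43 CPM (SD, n = 3) in WT and from 55.8 ± 1.40 to 155 ± 2.51 CPM in KO cells. For C4b (span 1.77) they were Soat2, a sterol O-acyltransferase (0.221), Gm32486 (0.231) and Ptpn7, a tyrosine phosphatase (0.232). Soat2 went from 19.4 ± 2.46 to 7.49 ± 2.15 CPM (SD, n = 3) in WT and from 19.4 ± 2.68 to 4.71 ± 0.853 CPM in KO cells. For C2 (span 1.08) they were 1700034H15Rik (0.195), Zfyve9 (0.245) and Gtf2ird2 (0.248), at larger distances than those found for C3. C2 rests on 26 to 78 counts per library, and its unstimulated level was higher in the libraries with raised opposite-strand counts. The part of these in its span and likeness was not tested. Cfb could not be compared, since it lacked values in 6 libraries.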

How the data were processed

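Labels gave the genotype, treatment and replicate number by which RNA-seq libraries from J774A.1 cells were grouped. Per the paper and the labels, libraries were made with a directional kit, and the authors used Trimmomatic 0.33 (version from the submitters' processing notes) for trimming, HISAT2 for alignment to GRCm38, StringTie for quantification and Ballgown for testing. Raw counts (whole numbers, not normalized) were deposited by gene in a table for each state. The step that gave whole counts, and whether it used the strand, are not given in the sources used here. The tables also hold log2 values per library (12 columns, not used) and the authors' own fold changes and p-values, which were not used. The tables list 17544 genes without stimulation and 17874 after LPS, once 59 and 57 repeated entries were removed, and 16699 genes in both.

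Counts were tested with edgeR 4.0.16 in R 4.3.3 (filterByExpr, TMM, quasi-likelihood test, two-sided) with Benjamini-Hochberg adjustment over all genes tested at 0.05. Genotypes were compared within the table of each state, and LPS and the interaction in 1 fit of the 12 libraries over the genes of both tables. Per the paper, replicates are different lines grown as single-cell clones, while the labels give only replicate numbers. Pairs of libraries within a group differed by more than sampling noise (chi-square per degree of freedom 31.7 to 269). With these depths the spread between libraries of a group limits precision, except for C2, C4b and Cfb. The tests were tried on simulated counts. Levels per kilobase used the exons of GENCODE M21, and promoters and their start sites came from RefSeq. The members, the list of other complement genes and the batch term were chosen with earlier results of these data known. All members are named, and at most 5 other genes with the smallest p per comparison, except that Masp1 in WT cells, Masp2 in KO cells, C5ar2, C4a and Zbtb12 were named after their values were seen. The same holds for the single macrophage markers Lyz2, Fcgr1, Adgre1 and Cd14.

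The labels do not say that a replicate number is the same line in both states. Deviations of same-number libraries from their group means correlated from 0.139 to 0.454 over 11961 genes with a mean of at least 1 CPM (0.0913 to 0.307 over all 16535). Those of different numbers correlated from -0.344 to 0.0976. Deviations within a group of 3 sum to 0, so these values are not independent of the same-number ones. In KO cells the contrast was slight, with 0.139 for replicate 2 in both states and 0.0976 for unstimulated replicate 2 with LPS replicate 3. The number was taken to pair the libraries, and the block was fitted as an alternative. Alternatives were DESeq2 1.42.0, limma-voom (limma 3.58.1), RLE and upper-quartile normalization, no filter, at least 10 counts in every library, blocks, a batch term, all 12 libraries in 1 fit and each library left out. The batch term marked the 3 unstimulated libraries with raised opposite-strand counts and does not come from the labels, which name no batch. Leaving out the 3 libraries with raised opposite-strand counts was added after the data were seen.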

Additional observations from a re-analysis of the deposited data

How the results depend on the processing

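Over 664 values of single members under alternatives, 614 kept their direction and side of the threshold, 38 changed sign, 7 newly passed and 5 no longer passed, the latter all for C3 in KO against WT cells after LPS. The LPS calls of C3 and C4b held under all 21 alternatives in both genotypes, C3 with 1.26 to 1.503 in WT and 1.52 to 1.72 in KO cells, C4b with -1.84 to -1.21 and -2.05 to -1.72. Members called after LPS between genotypes numbered 2, 1 in the fit of all 12 libraries, which Cfb cannot enter, and 1 to 2 with a library left out. Newly passing were C2 for LPS in WT with upper-quartile scaling (-0.82, adjusted p = 0.0435, edgeR) and without KO replicate 2 unstimulated (-0.61), and C1qb for LPS in KO with DESeq2 (0.25, adjusted p = 0.0488) and without WT replicate 2 (0.25) or KO replicate 3 (0.34) unstimulated. The line block changed no member call other than C1qb in both genotypes. The WT and KO numbers do not pair lines (same-number correlations of -0.412 to 0.745), and the replicate number as a block left 0 and 2 members called between genotypes.

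Genes called in unstimulated KO against WT cells numbered 314, and 1721 with DESeq2, 475 with at least 10 counts, 151 with the replicate block, 664 with the batch term, 1355 with all 12 libraries, 66 without the 3 libraries with raised opposite-strand counts (1 WT against 2 KO libraries, the lone library assumed to vary like the others) and 7 to 522 with a library left out (7 without WT replicate 2). After LPS they numbered 2481, and 867 to 2245 with a library left out. The interaction gave 31, and 333 with DESeq2, 11 with limma-voom, 288 with the line block, 69 with the batch term, 2 without the 3 libraries and 2 to 41 with a library left out. Causes of these shifts were not tested.

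The sign changes were all of values that did not pass the test. Upper-quartile scaling gave, for LPS in WT, C1qa -0.20, C1qb -0.040 and C1qc -0.16, and in KO, C1qa -0.049 and C1qc -0.026. For LPS in WT, C1qa was -0.0060 with DESeq2 and with RLE and -0.0051 with at least 10 counts. The batch term gave C1qa -0.11 and C1qc -0.076 for LPS in WT, C4b -0.012 between unstimulated genotypes and C2 -0.089 for the interaction. Without the 3 libraries, C1qa was -0.18, C1qb -0.0064 and C1qc -0.11 for LPS in WT and Cfp 0.014 between unstimulated genotypes. With all 12 libraries C1qc was -0.0036 between genotypes after LPS. With a library left out, ranges that crossed 0 were -0.17 to 0.050 for C1qa and -0.087 to 0.22 for C4b between unstimulated genotypes; -0.0095 to 0.14 for C1qa, -0.078 to 0.076 for C1qc and -0.58 to 0.041 for C4b after LPS; -0.12 to 0.096 for C1qa, -0.085 to 0.14 for C1qc and -0.17 to 0.061 for Cfp for LPS in WT; and -0.021 to 0.21 for C1qc, -0.12 to 0.58 for C2 and -0.21 to 0.020 for Cfp for the interaction. By longest transcript, C1qc had 312 to 341 and C2 0.143 to 0.315 CPM per kb over the groups.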
